A study of Mus musculus with 6 samples.

Results

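The core circadian clock genes described here are the transcriptional activators Arntl, Clock and Npas2, the repressors Per1, Per2, Per3, Cry1 and Cry2, and the casein kinase genes Csnk1d and Csnk1e. They were taken by symbol from probe sets that carry exactly 1 gene symbol, with the brightest probe set over the 6 arrays kept for a gene with several. Of the 10 genes, 8 had such a probe set, out of 22180 genes measured this way. Per2 and Csnk1d are represented on the array by probe sets that carry several symbols, and their values were not used here. Probe sets were chosen by mean intensity over all 6 arrays, which does not use the genotype. The family itself was proposed with earlier results of the comparison of genotypes in view, so its values describe these arrays and are not independent support for a difference.

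Whole sciatic nerves of 10-month-old Srebf-1c KO mice and of wild-type littermates were profiled on Affymetrix whole-transcript arrays, with 3 arrays for each genotype. Srebf-1c is a form of the transcription factor made by Srebf1 and is known for driving fatty acid synthesis genes. No other allele or treatment is named in the labels, and the time of day at dissection is not given in the sources used here. For clock transcripts, a difference in dissection time between the groups therefore cannot be told apart from genotype on these arrays. Since the labels do not tie each array to a mouse of its own, p-values reflect only the spread among these samples, part of which may be technical. All intensities below are log2 values of the deposited signals, and a difference of 1 on this scale is a doubling.

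In the clock loop, the proteins CLOCK and BMAL1, the product of Arntl, bind E-box elements and switch on the Per and Cry genes, whose products return to the nucleus and shut off the activators. NPAS2 can take the place of CLOCK. Casein kinases 1 delta and epsilon phosphorylate PER proteins and mark them for turnover. In a coupled loop the REV-ERB repressors, encoded by Nr1d1 and Nr1d2, compete with ROR activators on elements of the Arntl gene, so that Arntl transcripts and E-box-driven transcripts are known to peak at opposite times of day in peripheral tissues. The factor DBP acts on D-box elements, which occur in Per genes.

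Promoter sequence is shown for the members in whose window, from 250 bases before to 50 after a RefSeq transcription start of GRCm38.p6, a script found the letters of a known clock element. Of the 10 genes, 8 had windows in the RefSeq table, 15 windows in all, and each motif was searched on both strands. The capitals mark the E-box CACGTG, the E-prime box CACGTT, which reads AACGTG on the opposite strand, the D-box TTATGTAA, or the longer REV-ERB/ROR response element. Only the 250 bases before the start are printed for Per1 (chr11:69098699-69098948, plus strand), Per3 (chr4:151044666-151044915, minus strand), Cry1 (chr10:85185055-85185304, minus strand) and Cry2 (chr2:92434070-92434319, minus strand), and for Arntl a stretch of 30 bases around its element (chr7:113207527-113207556, plus strand).
Per1: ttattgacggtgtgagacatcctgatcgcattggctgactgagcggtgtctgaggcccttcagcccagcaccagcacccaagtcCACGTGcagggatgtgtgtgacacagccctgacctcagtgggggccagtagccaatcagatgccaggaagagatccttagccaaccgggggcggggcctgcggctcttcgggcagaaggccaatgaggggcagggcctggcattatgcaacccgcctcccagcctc
Per3: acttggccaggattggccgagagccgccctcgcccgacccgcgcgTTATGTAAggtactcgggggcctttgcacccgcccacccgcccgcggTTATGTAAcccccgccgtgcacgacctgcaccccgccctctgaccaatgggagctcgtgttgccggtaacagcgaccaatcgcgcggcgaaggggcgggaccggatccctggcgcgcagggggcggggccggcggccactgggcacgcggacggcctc
Cry1: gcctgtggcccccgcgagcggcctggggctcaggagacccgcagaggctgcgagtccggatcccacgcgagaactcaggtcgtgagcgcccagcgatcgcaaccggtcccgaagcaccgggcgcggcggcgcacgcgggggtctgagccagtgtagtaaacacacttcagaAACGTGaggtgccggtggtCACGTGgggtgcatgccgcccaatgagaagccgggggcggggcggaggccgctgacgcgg
Cry2: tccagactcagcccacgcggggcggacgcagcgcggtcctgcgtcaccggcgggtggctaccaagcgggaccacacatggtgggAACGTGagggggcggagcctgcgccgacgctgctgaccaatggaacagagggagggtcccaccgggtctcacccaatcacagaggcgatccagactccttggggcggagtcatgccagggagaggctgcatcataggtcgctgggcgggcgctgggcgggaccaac
Arntl: gggaaggcagAAAGTAGGTCAgggacggag

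The E-box of Per1 began 166 bases before the first of its 2 listed starts, and the window of its other start held none of the motifs. That of Cry1 began 60 bases before the start, and 7.15% of all 32851 windows in the table hold an E-box. Cry1 also had an E-prime box that began 79 bases before the start, as did Cry2 at 166 bases before it, a motif present in 4.68% of windows. The D-box occurred at 2 places in the Per3 window, 205 and 158 bases before the start, and in 0.938% of all windows. The REV-ERB/ROR element of Arntl began at base 27, counting the second of its 2 listed starts as base 1, and 0.384% of all windows hold one. In 0 of the 15 member windows did the letters TCACNCCAC of the sterol regulatory element, an element known for binding SREBP proteins, occur, against 1.24% of all windows. The cyclic AMP response element TGACGTCA (1.79% of windows) and the palindromic D-box TTACGTAA (0.119%) also had 0 matches in the member windows. For motifs this rare, 0 matches in 15 windows carry little information. A match is a run of letters and not a measured binding site, and these windows leave out distal elements.

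The targeted gene, Srebf1, was lower on each KO array. It measured 8.11, 8.06 and 8.04 in KO, against 9.53, 9.55 and 9.70 in wild type (log2 fold change -1.52 ± 0.11, SE, limma adjusted p = 0.0497), although it is not known here whether its probes cover the deleted part. With a replicate block, which by design leaves its log2 fold change at -1.52, the limma adjusted p was 0.713. Omitting any 1 array gave Srebf1 values of -1.56 to -1.47 with limma adjusted p of 0.255 to 0.764, and the call was also lost in other fits given at the end. Its relative Srebf2 stood at -0.15 ± 0.13 (SE), at -0.053 without wild-type replicate 2 and at -0.23 without wild-type replicate 3. Of 15 myelin and Schwann cell markers 12 were measured, with 7 higher and 5 lower means in KO. At an unadjusted limma p under 0.05 there was 1 of these markers, against 5.83% of all genes. That marker, Egr2, is also counted among the immediate early genes below. The mean centred level of the markers was 0.09, -0.07 and 0.14 on the KO arrays and -0.18, 0.18 and -0.17 on the wild-type arrays, with overlap. The myelin basic protein gene Mbp lay between 12.65 and 12.81 on the 6 arrays, and the transcription factor gene Sox10 between 10.58 and 11.57. Median intensity over 41077 probe sets ran from 118.9 to 122.6 in KO and from 115.5 to 118.0 in wild type, on the linear scale. Levels of adipocyte and skeletal muscle genes differed between arrays, and the tissue they came from was not tested. The mean centred level of 17 adipocyte genes was -0.58, 1.17 and -0.83 on the KO arrays and -0.68, -0.34 and 1.27 on the wild-type arrays. That of 20 skeletal muscle genes was 0.41, -0.36 and 0.26 in KO, against 0.79, -0.91 and -0.19 in wild type. Wild-type replicate 1 had the highest muscle level and also the highest level of 10 neuronal genes (0.67, against -0.54 to 0.24 on the other arrays). In whole nerve, fewer cells of a type and less RNA per cell cannot be told apart.

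Per1 stood higher on the KO arrays and Arntl lower, each without overlap of the groups, while the other 6 measured members overlapped. No member passed the test over all genes: 0 of 8 had a limma adjusted p under 0.05, where 0.00451% of all genes did, and the smallest was 0.85. At an unadjusted limma p under 0.05 there was 1 of 8, Per1, where 5.83% of all genes met that limit, and with the methods' t-test there were 2, Per1 and Arntl. With the 1.5-fold limit of the study's own criterion added there was 0 of 8, against 1.19% of all genes. Groups did not overlap in 2 of 8 members, against 12.3% of all genes. The median size of the log2 fold change, regardless of direction, was 0.224 over the 8 members and 0.129 over all genes. Members were divided by direction, with 4 higher and 4 lower means in KO, whereas 43.1% of all genes had a higher and 56.9% a lower mean. At the unadjusted limit 520 genes were higher and 773 lower, a split that became 565 and 463 with the arrays brought to 1 median and 612 and 590 after repeated quantile normalization.

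**Figure D1:**
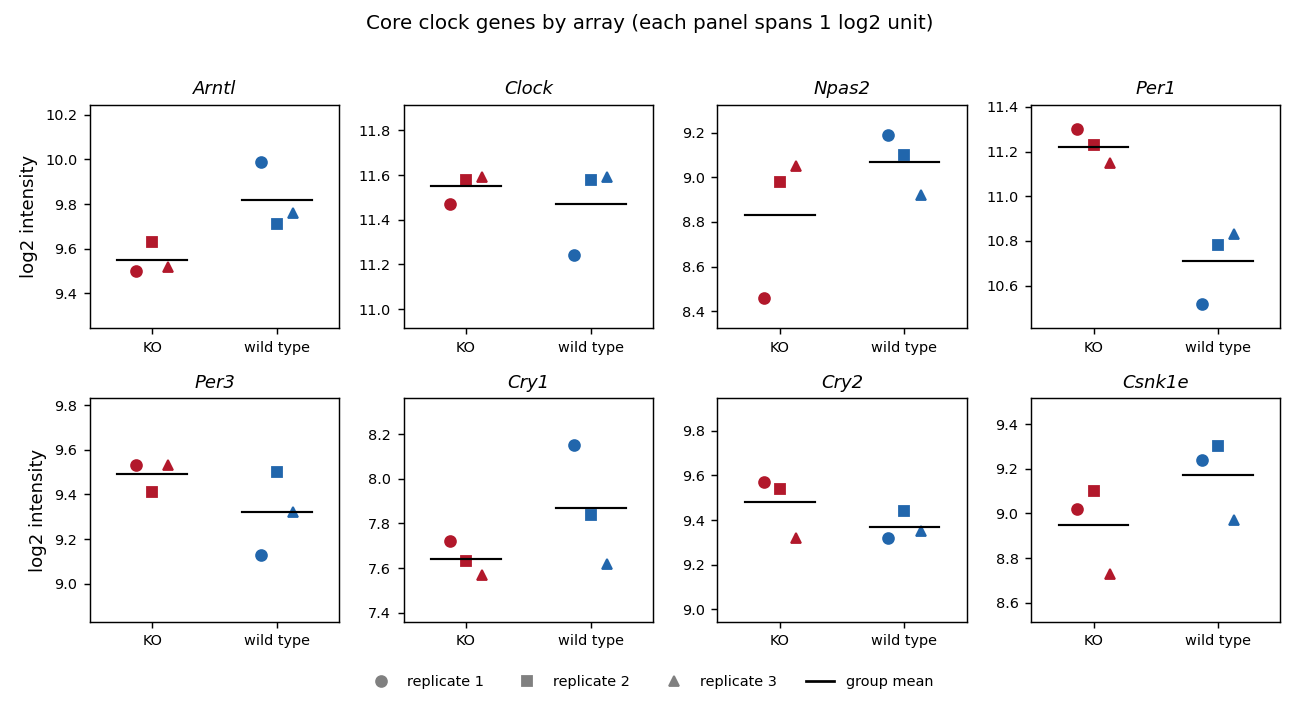
Log2 intensity of the 8 measured core clock genes on the Srebf-1c KO arrays (red, left in each panel) and the wild-type arrays (blue, right), with marker shape for the replicate number and a bar for the group mean. Each panel spans the same range. Per1 and Arntl are the panels in which the groups do not overlap.

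Among the activators, Arntl encodes BMAL1, the obligate partner in the activator complex. It measured 9.50, 9.63 and 9.52 on the KO arrays, against 9.99, 9.71 and 9.76 on the wild-type arrays. All 3 KO values lay below the lowest wild-type value, by 0.08. The group means were 9.55 ± 0.07 in KO and 9.82 ± 0.15 in wild type (SD, n = 3 each). The log2 fold change was -0.27 ± 0.13 (SE), which put KO at 0.831 times wild type (limma adjusted p = 0.867). Wild-type replicate 1 was the highest array, and without it the log2 fold change was -0.18.

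Npas2, the CLOCK paralog, measured 8.46, 8.98 and 9.05 in KO, against 9.19, 9.10 and 8.92 in wild type. KO replicate 1 was far below the other 5 arrays, and the other KO values lay within the wild-type range. The log2 fold change of -0.24 ± 0.18 (SE, limma adjusted p = 0.893) shrank to -0.055 without KO replicate 1. Clock, the partner of BMAL1, measured 11.47, 11.58 and 11.59 in KO, against 11.24, 11.58 and 11.59 in wild type. Replicates 2 and 3 of both genotypes gave the same values to 2 decimals, and replicate 1 was the lowest array of each. Its log2 fold change was 0.08 ± 0.14 (SE, limma adjusted p = 0.962), and without wild-type replicate 1 it was -0.038. Thus Arntl and Npas2 had lower means in KO and the sign for Clock rested on 1 array.

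Of the PER repressors, Per1 is known as a target of the activator complex that also responds quickly to stress hormones and cyclic AMP. It measured 11.30, 11.23 and 11.15 on the KO arrays, against 10.52, 10.78 and 10.83 on the wild-type arrays. The lowest KO value lay 0.32 above the highest wild-type value, and the 3 KO arrays were tightly grouped. The means were 11.22 ± 0.08 in KO and 10.71 ± 0.17 in wild type (SD, n = 3 each), a log2 fold change of 0.52 ± 0.13 (SE) or 1.43-fold. Per1 thus missed the 1.5-fold limit, and its limma adjusted p was 0.85. With each array left out in turn its log2 fold change stayed between 0.42 and 0.58, with the lowest value without wild-type replicate 1. With the adipocyte or the muscle level as a covariate the limma unadjusted p of Per1 was 0.00623 and 0.00412, against 0.00502 without. With so few arrays, these fits cannot tell what part either tissue had in the Per1 difference.

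Per3, a PER family member whose loss is known to have milder effects on rhythms in mice, measured 9.53, 9.41 and 9.53 in KO, against 9.13, 9.50 and 9.32 in wild type. The groups overlapped through wild-type replicate 2. Per3 had a log2 fold change of 0.17 ± 0.13 (SE, limma adjusted p = 0.894). Without wild-type replicate 1, the lowest array, it was 0.078, and without wild-type replicate 2 it was 0.26. Both measured Per genes therefore had higher means in KO, with a non-overlapping difference in Per1 alone of the pair.

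Cry1 and Cry2 encode the cryptochromes, which repress the activator complex. Cry1, whose transcript is known to peak later than those of the Per genes, measured 7.72, 7.63 and 7.57 in KO, against 8.15, 7.84 and 7.62 in wild type. Wild-type replicate 3 lay inside the KO range and wild-type replicate 1 far above it. Cry1 had a log2 fold change of -0.23 ± 0.16 (SE, limma adjusted p = 0.892), and it was -0.086 without wild-type replicate 1 and -0.35 without wild-type replicate 3. Cry2 measured 9.57, 9.54 and 9.32 in KO, against 9.32, 9.44 and 9.35 in wild type. KO replicates 1 and 2 were the highest arrays and KO replicate 3 lay at the lowest wild-type value. Its log2 fold change of 0.10 ± 0.12 (SE, limma adjusted p = 0.936) ran opposite to that of Cry1, and it was 0.056 without KO replicate 1 and 0.18 without KO replicate 3.

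Csnk1e, the measured casein kinase gene, gave 9.02, 9.10 and 8.73 in KO, against 9.24, 9.30 and 8.97 in wild type. Replicate 3 was the lowest array of each genotype, and wild-type replicate 3 lay within the KO range. Csnk1e had a log2 fold change of -0.22 ± 0.15 (SE, limma adjusted p = 0.892), and it was -0.11 without KO replicate 3. With the replicate number as a block, Per1 remained the 1 member with an unadjusted limma p under 0.05.

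**Figure D2:**
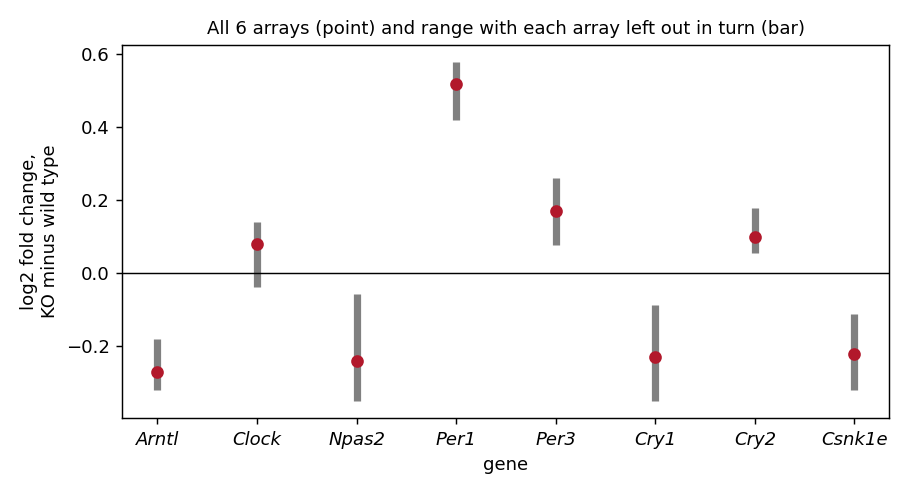
Log2 fold change of KO over wild type for the 8 measured core clock genes with all 6 arrays (points) and the range with each array left out in turn (bars). The bar of Per1 runs from 0.42 to 0.58 and that of Arntl from -0.32 to -0.18, while the bar of Clock crosses 0.

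Array by array, averages over the arms of the loop restate the member values above. The PER average joins Per1, whose groups did not overlap, with Per3, whose groups did. The mean centred level of Per1 and Per3 was 0.23, 0.14 and 0.15 on the KO arrays, against -0.36, -0.05 and -0.11 on the wild-type arrays. That of Arntl, Clock and Npas2 was -0.24, 0.02 and 0.00 in KO, against 0.09, 0.08 and 0.04 in wild type, so that KO replicates 2 and 3 lay near the mean. Activators minus PERs was -0.47, -0.12 and -0.15 on the KO arrays, against 0.46, 0.13 and 0.15 on the wild-type arrays. All KO values were negative and all wild-type values positive, in a score that takes in the non-overlapping values of Per1 and Arntl. Replicate 1 was the most extreme array of each genotype. The KO mean was -0.24 ± 0.19 and the wild-type mean 0.24 ± 0.18 (SD, n = 3 each), mirrored because each gene was centred over groups of equal size. The difference was -0.49 and ranged from -0.55 to -0.38 with each array left out. Without Clock among the activators, a variant chosen after seeing the values, the difference was -0.60. No test was made of this score, since its members were chosen with results known. Wild-type replicate 1, where Arntl, Npas2 and Cry1 were highest and Clock, Per1 and Per3 lowest, is also the array with the highest neuronal and muscle levels. With the muscle level as a covariate the log2 fold changes were 0.54 for Per1, 0.20 for Per3 and -0.29 for Arntl. In the same fit they were -0.23 for Npas2, -0.26 for Cry1 and 0.12 for Clock. With so few arrays, that fit cannot tell what part muscle had in these values. The part of the neuronal level was not tested.

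**Figure D3:**
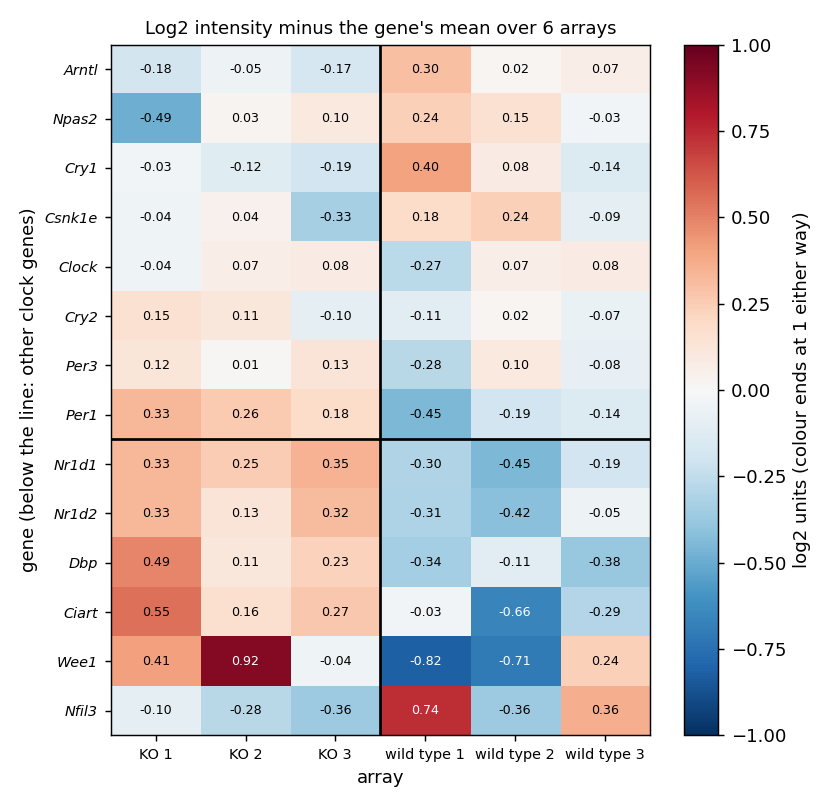
Log2 intensity minus the mean of the gene over 6 arrays, for measured core clock genes (above the line) and 6 others (below it). KO arrays are on the left and wild-type arrays on the right. These 6 other clock genes have the smallest unadjusted limma p of the 28 measured, so they do not represent that list. Tef and Hlf, whose groups overlapped, are among those not shown. Red cells lie above the mean of the gene and blue cells below it. Per1, Nr1d1, Nr1d2, Dbp and Ciart are above their means on all KO arrays and below them on all wild-type arrays, and Arntl shows the opposite.

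The rest of the clock pathway was read from a list of 31 further genes, of which 28 were measured. Of these, 0 passed a limma adjusted p of 0.05 (smallest 0.85), 5 had an unadjusted limma p under 0.05, all with higher means in KO, and 4 did so with the methods' t-test. Over all genes 2.34% were higher and 3.49% lower at the limma limit, and 6.37% met the limit either way with the methods' t-test. The median log2 fold change was 0.05 over the 28 and -0.03 over all genes. KO lay above wild type without overlap in 4 of the 28, against 4.08% of all genes, and below it in 1, Btrc, a ubiquitin ligase subunit that was picked after its values were seen, against 8.21%.

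Nr1d1, which encodes REV-ERB alpha, the repressor of Arntl, measured 11.75, 11.68 and 11.78 in KO, against 11.13, 10.98 and 11.24 in wild type. The KO arrays lay close together and 0.44 or more above every wild-type array. The log2 fold change was 0.62 ± 0.12 (SE, limma adjusted p = 0.85). Nr1d2, which encodes REV-ERB beta, measured 10.05, 9.85 and 10.04 in KO, against 9.41, 9.30 and 9.68 in wild type, again without overlap and with a log2 fold change of 0.52 ± 0.14 (SE). Dbp, the D-box activator, measured 9.90, 9.53 and 9.65 in KO, against 9.08, 9.30 and 9.04 in wild type, a log2 fold change of 0.55 ± 0.15 (SE). Ciart, a repressor of the CLOCK and BMAL1 complex, measured 8.32, 7.93 and 8.03 in KO, against 7.74, 7.11 and 7.48 in wild type, at 0.65 ± 0.19 (SE). These 4 genes had the arrangement of Per1, with every KO array above every wild-type array. Other listed clock genes did not: Bhlhe41 and Bhlhe40, repressor genes that are also known targets of CLOCK and BMAL1, stood at 0.14 ± 0.21 and -0.01 ± 0.13 (SE), with overlap in both and with Bhlhe40 at 0.041 after repeated quantile normalization. The ROR genes Rora and Rorb stood at 0.05 ± 0.12 and -0.51 ± 0.40, with overlap, and Rorb at -0.027 without wild-type replicate 1. Of these, Bhlhe40, Bhlhe41, Rora and Rorb were picked after their values were seen, and the signs of the first 3 turned in some fits.

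Wee1, a cell-cycle kinase gene known as a clock output, had the largest log2 fold change of the listed clock genes, 0.86 ± 0.34 (SE). Its groups overlapped, with 8.54, 9.05 and 8.09 in KO, against 7.31, 7.42 and 8.37 in wild type. The D-box repressor gene Nfil3 stood at -0.50 ± 0.27 and at -0.25 without wild-type replicate 1 or -0.80 without wild-type replicate 2. The other PAR bZIP genes Tef and Hlf stood at 0.07 ± 0.17 and 0.17 ± 0.23, and their signs turned without wild-type replicate 2 (Tef, -0.11) and wild-type replicate 3 (Hlf, -0.0054). Usp2, a deubiquitinase gene, stood at 0.41 ± 0.28, at 0.19 without KO replicate 1 or wild-type replicate 2 and at 0.63 without wild-type replicate 1. Nampt, of NAD synthesis, stood at 0.28 ± 0.19, at 0.45 without KO replicate 3, 0.18 without KO replicate 1 and 0.16 without wild-type replicate 2. Genes of protein turnover and of chromatin cofactors had small differences: the 7 measured turnover genes ran from -0.14 to 0.41, the value of Usp2, with a median of 0.05, and the 6 cofactor genes from -0.09 to -0.01.

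**Figure D4:**
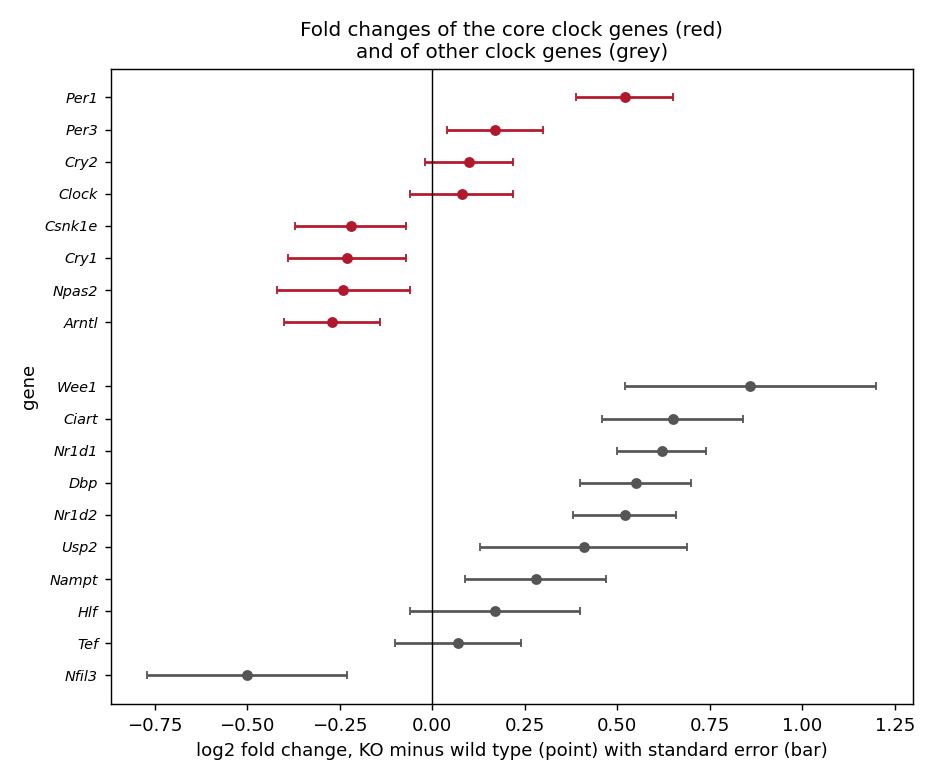
Log2 fold change of KO over wild type with its standard error for the 8 measured core clock genes (red, top) and 10 other clock genes (grey, bottom), from a limma fit over 22180 genes on 3 arrays per genotype. The grey genes are the 8 of smallest unadjusted limma p among 28 measured, with Nr1d1, Nr1d2, Dbp, Tef, Hlf and Nfil3 shown in any case. The median log2 fold change over the 28 was 0.05. Per1 stands highest of the core genes at 0.52, in the range of Nr1d1, Nr1d2, Dbp and Ciart, and 0 of the genes shown passed an adjusted p of 0.05.

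Per1 is also known as a target of glucocorticoid signalling, and most genes of that response had higher means in KO. Of 11 glucocorticoid-responsive genes, this held for 10, against 43.1% of all genes, with a median log2 fold change of 0.38. The list had 4 members with an unadjusted limma p under 0.05, all higher in KO, where 2.34% of all genes were, and 0 past an adjusted p of 0.05. Sgk1, a kinase gene, measured 10.70, 10.65 and 10.60 in KO, against 9.90, 10.00 and 10.41 in wild type, without overlap. The metallothionein genes Mt2 and Mt1 stood at 0.42 ± 0.13 and 0.38 ± 0.15 (SE). The mean centred level of the list was 0.15, 0.39 and -0.01 in KO, against -0.35, -0.33 and 0.15 in wild type, with overlap. The part of this response in the Per1 difference was not tested.

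Immediate early genes are transcribed within minutes of a stimulus. Of 10 measured, 3 had higher and 7 lower means in KO, against 43.1% and 56.9% of all genes. At an unadjusted limma p under 0.05, 1 was higher and 3 lower, against 2.34% and 3.49% of all genes, and 0 passed an adjusted p of 0.05. Atf3 stood at -0.59 ± 0.16 (SE), Egr1 at -0.75 ± 0.29 (-0.45 without wild-type replicate 1) and Egr2, which also drives myelin genes in Schwann cells, at 0.50 ± 0.13. The mean centred level of this list was -0.13, -0.05 and -0.07 in KO, against 0.23, 0.00 and 0.03 in wild type. These levels did not overlap, with wild-type replicates 2 and 3 near the mean. Any part of this list in the clock gene differences was not tested. Sex-linked genes showed no mixture of sexes: Xist was between 5.43 and 5.91 on every array, and the Y-linked Eif2s3y, Uty and Kdm5d were between 8.59 and 10.34. Their log2 fold changes were 0.57 ± 0.23, 0.23 ± 0.24 and 0.20 ± 0.34 (SE), and KO replicate 1 was the highest array of each, without which Eif2s3y stood at 0.31.

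Per1 had the widest range of the members over the 6 arrays, 0.78. The genes whose centred profile was closest to it, by root-mean-square difference over 6 arrays among 17442 genes, were Zkscan3, Snapc3, Eif3e, Vkorc1l1 and Snrpc, at 0.06 to 0.09, where the median gene was at 0.35. Of the clock genes, Nr1d2 was in place 73 at 0.139, Nr1d1 in place 84 and Dbp in place 86, while Per3 was in place 465. Ciart was only in place 3869 at 0.283, and Usp2 and Wee1, also of higher mean in KO, lay beyond the median gene at 0.400 and 0.415. Set against the Per1 profile with its sign turned, the closest were Dixdc1, Tmem167b, Utp14a, Aadacl4fm4 and Klhdc8a, at 0.07 to 0.09. Arntl was in place 132 there, at 0.141, Cry1 in place 688 and Npas2 in place 1426. All arrays enter these profiles, so the likeness includes the difference between the genotypes, and with 6 arrays many genes come close.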

How the data were processed

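RNA of 6 whole sciatic nerve samples was hybridised to 1 array each. The deposited values are probe set intensities made by the authors with RMA (background correction, normalization, summary per probe set) in TAC and Partek, per the series' design text; that they are on a linear scale was read from the values, from 3.67 to 23738. The build mm8 comes from the submitters' processing notes, with no versions given in the sources used here. Groups follow the titles and the genotype field, against which the source field calls the KO samples wild type.

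Log2 was taken with no pseudocount. Of 41077 probe sets, 23521 carried 1 gene symbol in the platform annotation, 1814 several and 15742 none; 1082 genes had several probe sets. limma 3.58.1 in R 4.3.3 (lmFit, eBayes) was run on all 22180 genes, KO minus wild type, two-sided, with Benjamini-Hochberg adjustment over all of them. SEs are those of this fit. The number of arrays limits the precision. The study's criterion joins a 1.5-fold change with an unadjusted p under 0.05. A centred level is a log2 value minus the mean of the gene over 6 arrays, averaged over a list. The fit was also run on simulated data. The simulated shifts were larger than the members' differences, so that run does not tell whether differences of their size can be detected. Members, lists (clock, glucocorticoid-responsive, immediate early, sex-linked and cell type genes) and tests were chosen with earlier results of these data known. Named were all members, Srebf1 and Srebf2, the 8 listed clock genes of smallest p with Nr1d1, Nr1d2, Dbp, Tef, Hlf and Nfil3, up to 3 genes of each context list by p, and the closest 5 genes to the member of widest range, either way, without predicted, receptor-family and small RNA genes. Motifs were searched in RefSeq promoter windows of GRCm38.p6. Same-numbered samples did not deviate together in all pairs (r = 0.117, 0.0117 and -0.233 across genes), so the numbers were not taken as pairs. Alternatives were a replicate block, the methods' t-test, a trend with robust prior, array weights, leaving out dim genes, other normalizations, other uses of probe sets, muscle and adipocyte covariates and leaving out each array. Python 3.11.15, pandas 2.3.3, numpy 2.4.6 and matplotlib 3.10.9 were used for joins and plots.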

Additional observations from a re-analysis of the deposited data

How the results depend on the processing

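Over 12 alternatives on all 6 arrays, each of the 8 members kept its direction in each (96 of 96 values). Part of this was fixed in advance. The replicate block, the methods' t-test, the intensity trend, leaving out dim genes and other uses of probe sets cannot alter these members' log2 fold changes. Only array weights, the other normalizations and the covariates could have turned a sign among these alternatives. Once leaving out arrays was included, 0 of 144 member values passed an adjusted p of 0.05 (smallest 0.631). The count of members with an unadjusted p under 0.05 was 2 in place of 1 with the methods' t-test and with the intensity trend, where Arntl joined Per1. With the replicate block it stayed 1, while the count of genes past an adjusted p of 0.05, which held Srebf1 alone, became 0; the block also left 5 other clock genes at an unadjusted p under 0.05, with Usp2 in place of Wee1. Srebf1 had a log2 fold change of -1.52 in the block (limma adjusted p = 0.713) and the methods' t-test (adjusted p = 0.308), which cannot alter it. It was also -1.52 with the muscle (limma adjusted p = 0.221) and adipocyte (limma adjusted p = 0.156) covariates. That gene count was also 0 with the methods' t-test, repeated quantile normalization, arrays at 1 median, every probe set and either covariate. The study's criterion took 138 genes with the methods' t-test, 150 without the dimmest 25% and 89 without the dimmest 50% of genes, against 265, and 671 genes had an unadjusted p under 0.05 without the dimmest 50%, against 1293; fewer genes tested lower such counts by construction.

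With each array left out in turn, genes past an adjusted p of 0.05 numbered 0 to 1. The 1, called without KO replicate 2, was not Srebf1 (limma adjusted p = 0.255 there). Genes under an unadjusted 0.05 numbered 626 to 1595, those meeting the study's criterion 231 to 552, and members without overlap 2 to 5. The 5, reached without wild-type replicate 3, were Arntl, Npas2, Per1, Cry1 and Csnk1e, where 24.7% of all genes did not overlap. Per1 was the 1 member with an unadjusted p under 0.05 in each of these 6 fits. Ranges that crossed 0 were -0.038 to 0.14 for Clock, -0.11 to 0.19 for Tef, -0.0054 to 0.42 for Hlf, -0.086 to 0.089 for Bhlhe40, -0.06 to 0.28 for Bhlhe41, -0.04 to 0.10 for Rora, -0.038 to 0.41 for Uty and -0.21 to 0.46 for Kdm5d. Bhlhe40 also turned to 0.041 after quantile normalization and 0.024 with arrays at 1 median. The cause was not tested.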
